A study of Mus musculus with 7 samples.

Results

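Chromatin accessibility after weight loss was compared with that of lifelong lean mice in adipose tissue macrophages. The comparison set 2 libraries of mice that had been obese and then lost weight, HFD-RD, against 2 libraries of mice that never ate the high-fat diet, RD-RD, at every region of the 7 deposited tables. All 5898 deposited regions entered, none was removed, and 4 of the 7 libraries of the series carried the contrast. All mice were adult male C57Bl/6J animals. Mice of the HFD-RD group ate a diet with 60% lipid for 11 weeks and a regular diet with 10% lipid for the following 9 weeks. Mice of the RD-RD group ate the regular diet for 20 weeks. The 3 libraries of another group, HFD, were taken after 11 weeks on the high-fat diet. They entered the estimate of the spread between libraries of a group. They also entered the mean counts used to rank or cut regions and the mean used for rescaling. Nuclei of macrophages had been sorted by FACS and treated with the Tn5 transposase, which cuts and tags open chromatin (ATAC-seq), so a value counts the reads that fell in a region.

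Open chromatin marks the places where regulatory proteins reach the DNA. Promoters lie at gene starts, and many of them are rich in CpG dinucleotides and are open in most cell types. Enhancers lie farther away, inside or between genes, are often poor in CpG and differ more between cell states. Macrophages of fat tissue take up lipid and dead adipocytes in obesity and break them down in lysosomes, while resident macrophages of lean fat lie along vessels and clear debris.

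The labels of these libraries conflict. The titles and the diet labels give the groups used here, but the source names of the 7 libraries name other diets than their titles, in an order that looks shifted. The deposited regions had been selected by the authors for differing between libraries of these groups, so the counts below hold within the deposited set and say nothing of other regions. The labels do not say that the libraries came from separate animals, or whether animals were pooled, so the p-values measure the spread between these libraries, which may be technical. Reads within the deposited regions numbered 889422 and 1479141 in the HFD-RD libraries and 1034618 and 916247 in the RD-RD libraries, with a median of 71 to 127 reads in a region.

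Regions over gene starts were mostly lower in HFD-RD. Their promoters are shown first because base composition differed between starts that fell and the few that rose. The windows are RefSeq promoters of GRCm38.p6, the 200 bases before the gene start, written 5′ to 3′ on the strand of the gene with each CpG in capitals. Prima1 (chr12:103242147-103242346, minus strand) and Klf15 (chr6:90462376-90462575, plus strand) had the largest falls among windows with more than 22 CpG, the median of the windows under starts that fell. Prima1 anchors acetylcholinesterase in membranes, and Klf15 is a Krüppel-like transcription factor of metabolic genes.
Prima1: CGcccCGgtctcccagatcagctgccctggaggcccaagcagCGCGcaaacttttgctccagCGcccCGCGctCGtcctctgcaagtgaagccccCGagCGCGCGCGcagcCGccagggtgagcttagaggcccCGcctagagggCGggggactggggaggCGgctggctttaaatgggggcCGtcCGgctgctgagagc
Klf15: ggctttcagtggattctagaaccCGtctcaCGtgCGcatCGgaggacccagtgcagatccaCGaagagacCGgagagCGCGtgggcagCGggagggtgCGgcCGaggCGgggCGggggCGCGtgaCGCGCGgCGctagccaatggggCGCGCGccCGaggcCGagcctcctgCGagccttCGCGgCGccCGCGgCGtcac
Cd209f (chr8:4105765-4105964, minus strand), a C-type lectin of the DC-SIGN family, and Timd4 (chr11:46810599-46810798, plus strand), a receptor for phosphatidylserine on dying cells, had large falls with 5 or fewer CpG in the whole 300-base window. Only 1 gene of the Cd209 family is shown.
Cd209f: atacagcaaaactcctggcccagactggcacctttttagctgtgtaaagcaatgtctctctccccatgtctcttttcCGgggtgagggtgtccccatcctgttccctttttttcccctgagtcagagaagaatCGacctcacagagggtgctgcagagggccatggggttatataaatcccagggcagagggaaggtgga
Timd4: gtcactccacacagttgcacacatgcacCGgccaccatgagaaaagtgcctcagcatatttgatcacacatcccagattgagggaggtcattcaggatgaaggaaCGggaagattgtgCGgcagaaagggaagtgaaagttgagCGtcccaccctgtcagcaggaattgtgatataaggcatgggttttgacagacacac
Ctsk (chr3:95499010-95499209, plus strand), the gene of cathepsin K, and Gpnmb (chr6:49036318-49036517, plus strand), a transmembrane glycoprotein, had the highest counts among the 9 starts that rose and had a promoter window.
Ctsk: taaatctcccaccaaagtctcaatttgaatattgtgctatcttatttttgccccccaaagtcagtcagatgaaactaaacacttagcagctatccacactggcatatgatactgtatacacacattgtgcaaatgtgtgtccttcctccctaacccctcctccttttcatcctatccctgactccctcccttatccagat
Gpnmb: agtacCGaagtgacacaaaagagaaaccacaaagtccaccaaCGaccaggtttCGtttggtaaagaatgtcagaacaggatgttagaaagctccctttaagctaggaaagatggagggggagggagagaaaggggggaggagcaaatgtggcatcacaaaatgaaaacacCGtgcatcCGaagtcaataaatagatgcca
The Klf15 stretch held 31 CpG and the Prima1 stretch 19. The Cd209f stretch held 2, the Timd4 stretch 4, the Gpnmb stretch 5 and the Ctsk stretch 0.

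Across all deposited regions, 3822 rose in HFD-RD, which was 64.8% of those tested, and 1909 fell, which was 32.4% (limma on log2(normalized count + 1), adjusted p of 0.05 or less over 5898 regions). In either direction 5731 passed (97.2%), and 167 did not. The authors' selection favours that share: 2905 regions carried their fold change for this same contrast, and 2904 of these passed. Libraries of the 2 groups did not overlap in 3856 regions where both HFD-RD libraries were above both RD-RD libraries (65.4%) and in 1928 where both were below (32.7%). The median rise was 1.17 on the log2 scale and the median fall was -1.25, but large changes were more often falls. Rises reached 2 log2 units in 113 regions and falls in 155, and 3 log2 units in 2 and 11. When each library was rescaled so that its median deviation from the mean of the 7 libraries was 0, a choice added after the data were seen, 877 regions rose and 2002 fell, so the balance of rises and falls depends on the scaling.

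Replicates agreed closely. The median absolute difference between the 2 HFD-RD libraries was 0.25 on the log2 scale and that between the 2 RD-RD libraries was 0.27, against 1.19 between the group means. The group difference exceeded both replicate differences in 5633 regions, or 95.5%, a share that the selection favours. The squared difference between replicates averaged 10.5 times the variance expected from counting in HFD-RD and 3.30 times in RD-RD, more than sampling noise alone. Without the 7 regions over 3000 mean counts, which decide the HFD-RD value, the averages were 3.97 and 3.27. Replicates did differ in a direction that followed the contrast. In regions that rose, RD-RD library 1 lay above library 2 in 30.7% and HFD-RD library 1 lay above library 2 in 64.8%. The median rise was 1.36 between the libraries numbered 1 and 1.02 between the libraries numbered 2, while the median fall was -1.33 and -1.24. Each of the 4 pairs of an HFD-RD and an RD-RD library placed at least 99.9% of the called regions on the side of the call. A call made on the same libraries nearly fixes that share.

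**Figure D1:**
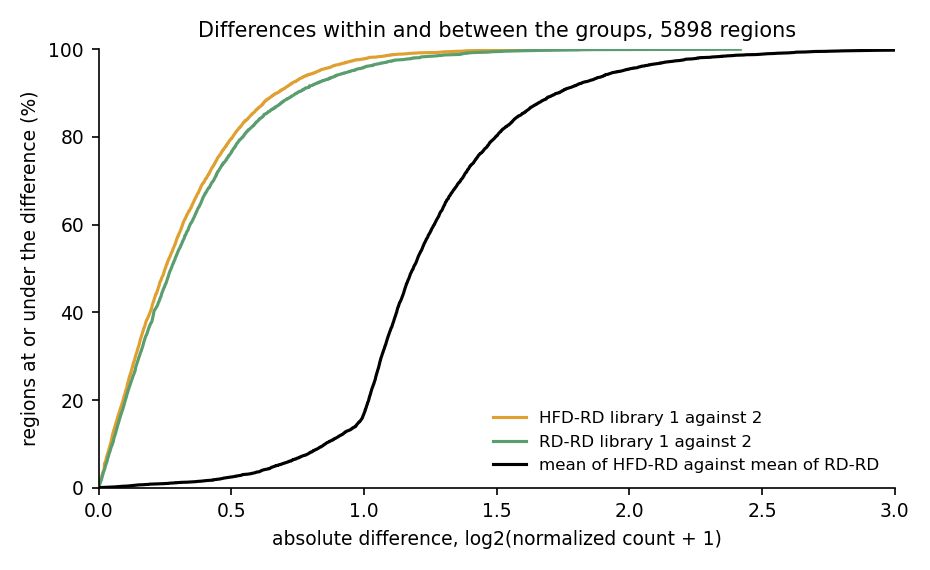
Cumulative share of the 5898 regions (y axis, percent) by absolute difference in log2(normalized count + 1) (x axis), for the 2 HFD-RD libraries, the 2 RD-RD libraries and the 2 group means. Both replicate curves rise at small differences, with medians of 0.25 and 0.27, and the curve of the group means lies to their right, with a median of 1.19.

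The largest rises lay away from gene starts. Among genes with more than a provisional name, the 6 largest were at Ap4e1, Adra1a, Fsd1l, Ugp2, Kdm4b and Npas2; the RIKEN genes 1700020M21Rik, with 3.01 ± 0.23, and 5830417I10Rik, with 2.73 ± 0.40, ranked among them. Inside Ap4e1 (chr2:127035138-127035867), which encodes a subunit of the AP-4 sorting adaptor, HFD-RD libraries held 166 and 180.5 normalized counts and RD-RD libraries 21.2 and 14.4. The HFD-RD libraries were both far above the RD-RD libraries, with a log2 change of 3.24 ± 0.26 (SE; limma adjusted p = 2.0e-05). A region upstream of Adra1a (chr14:66509330-66510464), the gene of the alpha-1A adrenergic receptor, held 173 and 138 against 16.2 and 25.9 counts, a change of 2.85 ± 0.26. Upstream of Ugp2 (chr11:21428632-21429171), whose enzyme makes UDP-glucose, the 4 values were 195, 207, 22.4 and 40.3, a change of 2.70 ± 0.26. In none of these did the groups overlap, which the rule that named them required. All 113 rises of at least 2 log2 units were likewise without overlap. Regions inside Kdm4b, a histone H3K9 demethylase, and inside Npas2, a clock factor, rose by 2.69 ± 0.40 and 2.63 ± 0.29, and a region upstream of Fsd1l rose by 2.81 ± 0.25.

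The largest falls left regions at low counts in HFD-RD. At provisional genes and a microRNA they were -3.47 ± 0.23 upstream of 4933400L20Rik, -3.41 ± 0.23 upstream of Mir6414, -3.31 ± 0.30 inside Gm6313 and -3.28 ± 0.32 downstream of Gm8979. Of the 6 largest at other genes, those of Kctd16, Tesk1 and Pou2af1 had under 20 mean counts in HFD-RD. Inside Kctd16 (chr18:40515218-40515820), an auxiliary subunit of GABA-B receptors, HFD-RD libraries held 18.2 and 18.5 counts and RD-RD libraries 193 and 194, a change of -3.33 ± 0.22 (limma adjusted p = 8.9e-06). Inside P3h2 (chr16:26082718-26083396), a collagen prolyl hydroxylase, the values were 31.0 and 37.0 against 351 and 312.5 counts, a change of -3.25 ± 0.21. Upstream of Cxcl13 (chr5:95897728-95898531), the chemokine that attracts B cells, they were 21.9 and 54.6 against 377 and 278, a change of -3.19 ± 0.39. The groups stood apart in all 3, as the naming rule required, and the Cxcl13 region had the widest gap between its HFD-RD libraries. Tesk1, a kinase of cofilin, Klhl13, an adaptor of cullin ubiquitin ligases, and Pou2af1, a B-cell transcriptional coactivator, had falls of -3.18 ± 0.21, -3.15 ± 0.20 and -3.06 ± 0.30. In all, 29 regions that fell had under 20 mean counts in HFD-RD, and 59 regions that rose had under 20 mean counts in RD-RD. Fewer cells of a type and less accessible chromatin per cell cannot be told apart in such bulk libraries.

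Gene starts stood apart in direction from the other positions, although most falls lay elsewhere. Of the 314 regions that covered the start of their assigned gene, 25 rose and 283 fell, with a median log2 change of -1.20. Outside gene starts, 787 of 1185 regions under 10 kb, 1800 of 2443 at 10 to 50 kb and 689 of 992 at 50 to 100 kb rose, with medians of 1.04, 1.07 and 1.05. Beyond 100 kb, 521 of 956 rose and 396 fell. The finer distances formed an arch: rises made up 9.44% of regions under 0.5 kb of a start, 44.7% at 1 to 2 kb, 72.8% at 20 to 50 kb, 45.6% at 200 to 500 kb and 20.5% of the 44 regions beyond 500 kb. Inside genes 71.7% of regions rose, against 60.9% of regions downstream of the assigned gene.

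**Figure D2:**
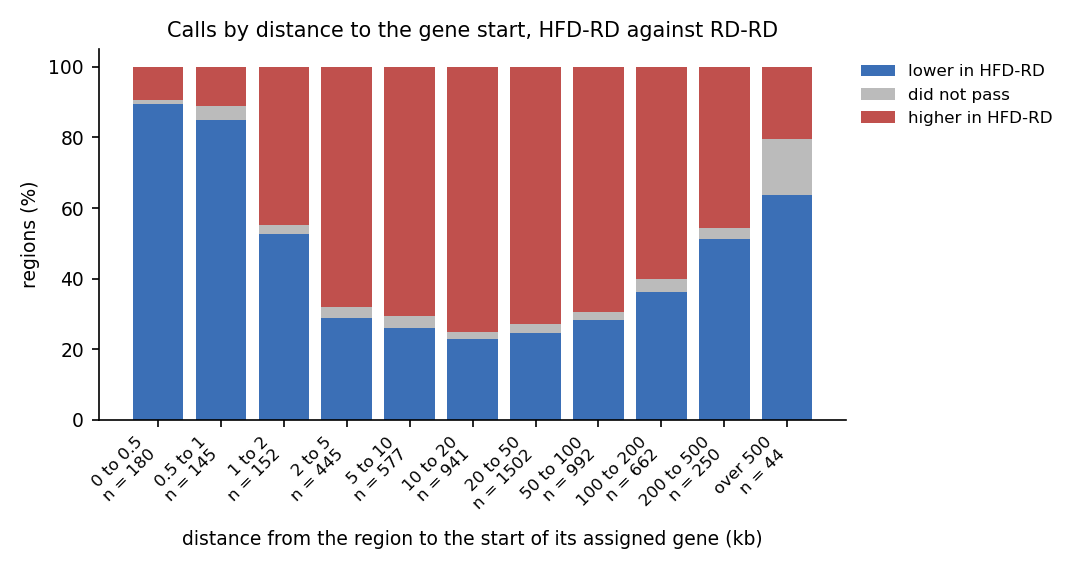
Share of regions (y axis, percent) that were lower, did not pass or were higher in HFD-RD, by distance from the region to the start of its assigned gene in kb (x axis, with the number of regions). Falls dominate under 1 kb, rises make up 72.8% at 20 to 50 kb, and falls reach 63.6% beyond 500 kb.

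Gene starts fell among the regions with high counts as well. Among the 1180 regions with the highest mean counts, 123 of 134 gene starts fell, while 834 of 1046 other regions rose. Between single libraries, 286 to 287 of the 314 starts were lower in HFD-RD in each of the 4 pairs. Under the rescaling that moved the overall balance, 288 gene starts fell and 1 rose. That rescaling shifts the log2 changes downward, their median by -0.80, so falls at starts were bound to stay and add no support. These counts have no test of their own, since the regions had been selected on the same libraries.

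Starts that fell belonged to genes of several kinds. At Klhl13 (chrX:23364496-23365734) the HFD-RD libraries held 45.6 and 46.3 counts and the RD-RD libraries 455 and 377. At Prima1, shown above, they held 78.4 and 83.3 against 600 and 560 counts, a change of -2.83 ± 0.20 (limma adjusted p = 1.3e-05). At Klf15 they held 111 and 105 against 503 and 576, a change of -2.31 ± 0.21. Both groups were tight at these starts and far apart. Large falls also lay at the starts of 4 receptor genes chosen after their values were seen, with -2.89 ± 0.27 at Cd209f, -2.78 ± 0.20 at Cd209d, -2.43 ± 0.34 at Timd4 and -1.82 ± 0.21 at Lyve1, a hyaluronan receptor. C-type lectins as a family, which include the Cd209 genes, had 7 rises (46.7%) and 8 falls (53.3%). Over all regions the shares were 64.8% and 32.4%, and 4 of the 8 falls lay over gene starts. Growth factor and axon guidance genes had falls at their starts of -2.31 ± 0.27 for Fgf5, -1.69 ± 0.22 for Egfr, -1.93 ± 0.22 for Tgfa and -2.74 ± 0.20 for Sema6a.

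The 25 starts that rose included genes of lysosomes, matrix breakdown and lipid binding. Atp6v0d2, a subunit of the lysosomal proton pump, held 930 and 812 counts in HFD-RD and 315 and 395 in RD-RD, a change of 1.30 ± 0.23 (limma adjusted p = 0.00041). Ctsk held 1703 and 1725 against 793.5 and 824, a change of 1.08 ± 0.20, and Gpnmb held 1375 and 1237 against 629 and 634, a change of 1.05 ± 0.21. The HFD-RD libraries lay above the RD-RD libraries at each of these starts. The starts of Mmp19, a matrix metalloproteinase, Angpt2, an angiopoietin, Fabp7 and Fabp4, fatty acid binding proteins, and Siglec15, a sialic acid receptor, rose by 1.06 ± 0.19, 1.33 ± 0.33, 1.06 ± 0.23, 0.80 ± 0.21 and 0.95 ± 0.22. The largest rise at a start, at Mir6977, was 1.56 ± 0.30, and the largest fall, at Klhl13, was -3.15 ± 0.20.

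Promoters under starts that fell were richer in CpG than those under the few starts that rose. Of the 314 starts, 200 had a RefSeq promoter window, from 250 bases before to 50 after the start, of which at least 150 bases lay in the region. Windows of the 186 starts that fell held a median of 22 CpG (quartiles 15 and 31.8), those of the 9 that rose held 6, and all 32851 windows in the table held 7. The median GC content was 65.3%, 50.7% and 52.7%. The 32851 windows were not limited to starts open in these nuclei, so they are not a background of open promoters. The 5 windows of starts that did not pass were also rich, with a median of 28 CpG and 72.7% GC, and all 5 held GGGCGG. The letters GGGCGG, searched on both strands and themselves holding a CpG, occurred in 135 of 186 windows that fell (72.6%), 1 of 9 that rose (11.1%) and 35.7% of all windows. TGANTCA occurred in 7 windows that fell (3.76%), 2 that rose (22.2%) and 7.81% of all windows. CCAAT, which holds no CpG, occurred in 72 (38.7%), 1 (11.1%) and 37.4%. Exceptions ran both ways: 13 windows that fell held 5 or fewer CpG, among them those of Cd209a, Cd209d, Cd209f, Siglech, Timd4, Cbr2 and Gimap1, while the Fat3 window, with 35 CpG, lay under a start that rose. Whether the libraries differ in how base composition affects their coverage was not tested.

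**Figure D3:**
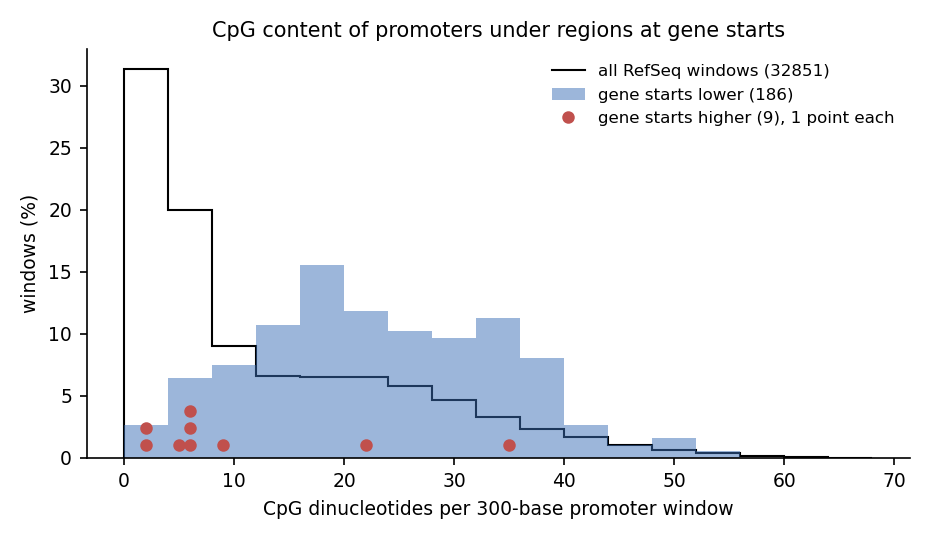
CpG dinucleotides per 300-base promoter window (x axis) and share of windows (y axis, percent) for all 32851 RefSeq windows (line) and the 186 windows under starts that fell (filled); each point is 1 of the 9 windows under starts that rose, stacked where they tie. The windows that fell centre on 22 CpG and 7 of the 9 that rose hold 9 or fewer.

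Regions of a locus mostly had 1 direction. Of 459 genes with at least 3 regions, 281 had only rises, 87 only falls and 66 both directions. The other 25 held regions that did not pass, with calls in at most 1 direction. Rises made up 64.8% of all regions and falls 32.4%, so many genes with few regions would hold 1 direction by that mix alone. The number expected from it was not computed. Rises filled whole loci at Lhfpl2 (12 of 12 regions, median 1.31), Abhd17c, a depalmitoylase (10 of 10, median 1.70), Camk2d, a calcium-dependent kinase (10 of 10, median 1.17), Xylt1, which starts glycosaminoglycan chains (10 of 10, median 1.14), and Apbb2, an adaptor of the amyloid precursor protein (9 of 9, median 1.81). All 10 regions assigned to Abhd17c lay upstream of it. By RefSeq coordinates 5 of them lay inside another gene, Arnt2, and rose with a median of 1.91. Falls filled Celf4, an RNA-binding protein, where 10 of 10 regions over 447.6 kb fell by -0.99 to -2.29, and P3h2, where 8 of 8 over 97.1 kb fell by -1.35 to -3.25. All 7 regions of Fgf9, a fibroblast growth factor, fell, the farthest 492551 bases downstream of its start. At P3h2 the median region held 44.7 and 42.6 counts in HFD-RD and 277 and 241 in RD-RD.

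**Figure D4:**
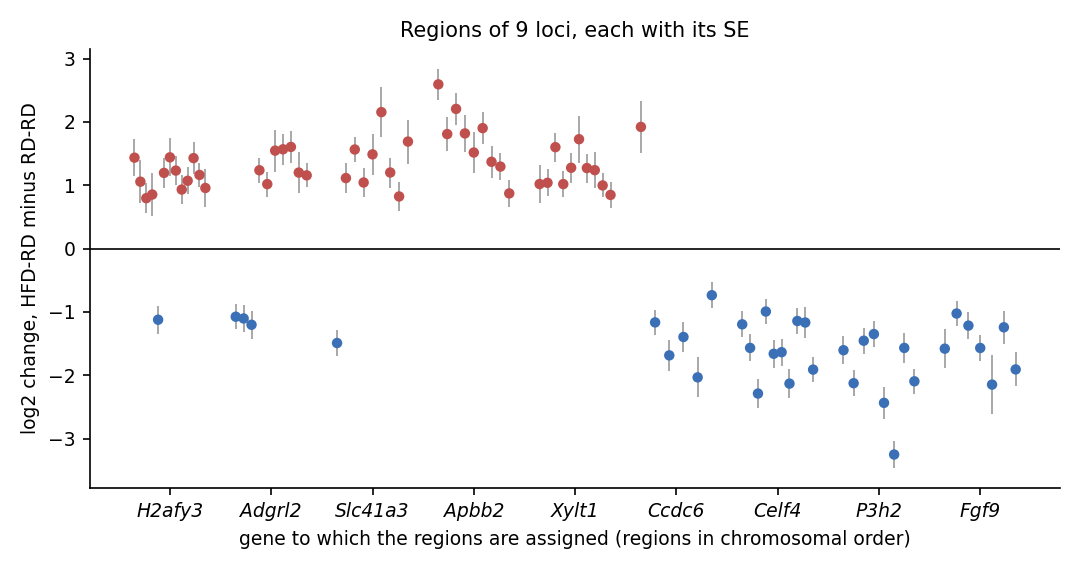
log2 change of each region with its SE (y axis, HFD-RD minus RD-RD) at 9 loci, regions in chromosomal order within a locus (x axis); red points rose and blue points fell. All regions of Apbb2 and Xylt1 lie above 0 and all of Celf4, P3h2 and Fgf9 below, while H2afy3, Adgrl2, Slc41a3 and Ccdc6 hold both.

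The arrangement of the directions differed between mixed loci. At H2afy3, the locus with the most regions, the single fall lay between rises. At Adgrl2, a latrophilin, the first 3 regions along the chromosome fell and the next 7 rose over 1138 kb. The 9 regions assigned to Slc41a3 were 1 fall inside that gene, of -1.49 ± 0.21, and 8 rises downstream of it, of 0.82 to 2.15. By RefSeq coordinates those 8 lay inside the neighbouring gene Iqsec1, an exchange factor of Arf GTPases, where all 8 rose. Of the 6 regions assigned to Ccdc6, 1 rose by 1.92 ± 0.41 and 5 fell, and 5 of them, with 4 falls, lay inside Ank3, a membrane-skeleton adaptor.

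Assignment to the nearest start hid other genes in the same way. By RefSeq coordinates, 1154 of the 5898 regions lay inside a protein-coding gene other than the assigned one, and 137 of the 236 regions assigned to a microRNA lay inside a protein-coding gene. Mrc1, the mannose receptor CD206 of resident and alternatively activated macrophages, was assigned no region, yet 5 regions assigned to Mir511 and Slc39a12 lay in it. All 5 fell, by -1.02 to -1.12. At the first (chr2:14266499-14269668) the HFD-RD libraries held 210 and 279 counts and the RD-RD libraries 503 and 500, a change of -1.05 ± 0.21 (limma adjusted p = 0.00079), and at the last (chr2:14328346-14331973) 210 and 196 against 411 and 478, a change of -1.12 ± 0.27. The groups did not overlap at either. Rptor, the raptor subunit of mTORC1, held 13 regions that all rose, 10 of them assigned elsewhere. All 7 regions inside Runx2, a transcription factor, had been assigned to Supt3 and rose with a median of 1.24. Zfhx3, a zinc-finger homeobox factor, held 6 regions assigned to Lncbate1 and Mir3108 that fell with a median of -1.26. The 4 regions inside Abca1, the cholesterol efflux pump, assigned to Nipsnap3b, rose with a median of 1.01.

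Neighbouring regions shared direction less often the farther apart they lay. Neighbouring called regions moved the same way in 99.5% of 366 pairs under 2 kb apart, 97.6% of 576 pairs at 2 to 10 kb and 90.0% of 1071 pairs at 10 to 50 kb. The share was 73.5% of 1398 pairs at 50 to 200 kb, 55.9% of 1591 pairs at 200 kb to 1 Mb and 47.4% of 568 pairs over 1 Mb apart. Short gaps can be parts of 1 open site, so the pairs are not independent. Rises made up 66.7% of called regions, and that mix alone gives many pairs of 1 direction. The shares at gaps beyond 200 kb are therefore no sign of shared direction by themselves. The longest run of rises, with gaps under 200 kb, was 20 regions at chr1:39089614-40254276, from Npas2 and Map4k4 to the interleukin-1 receptor genes Il1r2 and Il1r1, with a median of 1.38. Runs of 19 rises lay at Rptor, Chmp6 and Baiap2, at Lhfpl2 and Scamp1, and at Dusp4 and Tnks. The longest runs of falls were 10 regions each, at Lpar1, a lysophosphatidic acid receptor, at Zbtb7c and Smad2, and at Celf4.

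Exceptions at short range were few. Inside Plcl2, a phospholipase-like protein, a region at chr17:50654782-50655556 held 36.5 and 50.0 counts in HFD-RD and 105 and 73.4 in RD-RD, a change of -1.02 ± 0.29 (limma adjusted p = 0.0052). The next, 507 bases away, held 69.3 and 63.0 against 27.4 and 36.0, a change of 1.05 ± 0.24. Neither pair of groups overlapped. Upstream of Gstm1, a glutathione transferase, regions 1875 bases apart changed by 1.04 ± 0.23 and -0.93 ± 0.40. The start of 2810459M11Rik changed by -0.99 ± 0.20, with a rise of 1.08 ± 0.31 at a region 4398 bases away.

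Among gene families, defined by symbol patterns, lysosome genes had the highest share of rises among families with at least 20 regions: 32 of 34 regions at 16 genes rose (94.1%, against 64.8% of all regions). Upstream of Gpnmb, a region held 460 and 408 counts against 105 and 127, a change of 1.90 ± 0.22 (limma adjusted p = 8.0e-05). A region inside Mitf, a transcription factor of lysosome genes, held 74.8 and 77.8 against 13.7 and 25.9, a change of 1.96 ± 0.28. The groups did not overlap at either. The 2 lysosome regions that fell were assigned to Ctso, a cathepsin, and Atp6v1h, a proton pump subunit, with changes of -1.06 ± 0.20 and -1.49 ± 0.22. Motor proteins followed with 34 of 39 regions up (87.2%), of which Myo10, the myosin of filopodia, and Myh9, a non-muscle myosin, supplied several each. All 8 regions of Notch pathway genes (Hey1, Maml3, Dll1 and Jag1) rose, from 0.51 ± 0.20 inside Maml3 to 2.02 ± 0.28 upstream of Hey1, a Notch target. Against the same 64.8%, rises also made up 51 of 62 regions of lipid enzymes and binding proteins (82.3%). The shares were 53 of 65 for chromatin regulators (81.5%) and 36 of 44 for MAP kinases and dual-specificity phosphatases (81.8%). For the TNF superfamily the share was 20 of 24 (83.3%). Of those rises, 4 lay at Tnfaip3, the NF-κB inhibitor A20, which the symbol pattern caught though it is not a superfamily member.

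Factors of embryonic patterning went the other way. Homeobox, POU and PAX genes had 40 falls among 48 regions (83.3%, against 32.4% of all regions), and 29 of their 37 regions away from gene starts fell, so most of these falls lay away from starts. Inside Dlx6 the HFD-RD libraries held 87.5 and 63.0 counts and the RD-RD libraries 258 and 261, a change of -1.79 ± 0.22 (limma adjusted p = 9.2e-05). At the start of Pax3 they held 69.3 and 88.0 against 240 and 251, a change of -1.64 ± 0.20. The groups did not overlap at these 2 patterning genes, and falls of -1.14 to -1.25 lay at Hoxb9, Hoxc11, Hoxc13, Hoxd3 and Hoxd9. The pattern also caught Pou2af1, which is a coactivator without a homeodomain, and antisense transcripts. Nuclear receptors had 13 falls among 15 regions (86.7%), 1 of them at Esrp1, a splicing factor that only shares the letters. Rarb, a retinoic acid receptor, had 32.8 and 38.9 against 184 and 181 counts, a change of -2.32 ± 0.21, and 3 regions of Thrb, a thyroid hormone receptor, fell by -1.22 to -1.60. The 2 rises were at Ppard, 0.97 ± 0.23, and upstream of Nr3c1, the glucocorticoid receptor, 1.15 ± 0.24. SOX, FOX, T-box and GATA genes had 23 falls among 38 regions (60.5%), and ephrins and Eph receptors, like Slit, Robo and netrin genes, had 6 among 8, against the same 32.4%.

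Growth factors and their receptors divided by member rather than by family, with 23 rises (47.9%) and 25 falls (52.1%). Over all regions the shares were 64.8% and 32.4%, so falls were more frequent here. Upstream of Vegfa, which drives vessel growth, a region held 465 and 383 counts in HFD-RD and 93.4 and 131 in RD-RD, a change of 1.92 ± 0.23 (limma adjusted p = 9.6e-05). Another upstream of Vegfc, the member that drives lymphatic growth, held 42.0 and 34.3 against 183 and 114, a change of -1.90 ± 0.26. The groups stood apart at both, in opposite directions. Regions of Igf2r, Met, Nrg4 and Pdgfa rose throughout, as did those of Igf2bp2, an RNA-binding protein that the symbol pattern caught, and those of Fgf9, Egfr and Areg, an Egfr ligand, fell throughout. Kdr, a Vegf receptor, had 2 rises and 2 falls. Olfactory, vomeronasal and defensin genes had 18 falls among 27 regions (66.7%, against 32.4% of all regions). Predicted genes named Gm had 129 rises (50.6%) and 112 falls (43.9%), a lower share of rises than over all regions. The microRNA genes, with 156 rises among 236 regions (66.1%), lay near the share of all regions. Under the rescaling described above, 877 of all 5898 regions rose and 2002 fell. Lysosome genes then kept 10 rises against 2 falls, and growth factors 5 against 25. Homeobox, POU and PAX genes had 1 rise and 40 falls, and nuclear receptors 0 and 13. Since the rescaling shifts the log2 changes downward, falls that stayed under it add no support for these families.

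**Figure D5:**
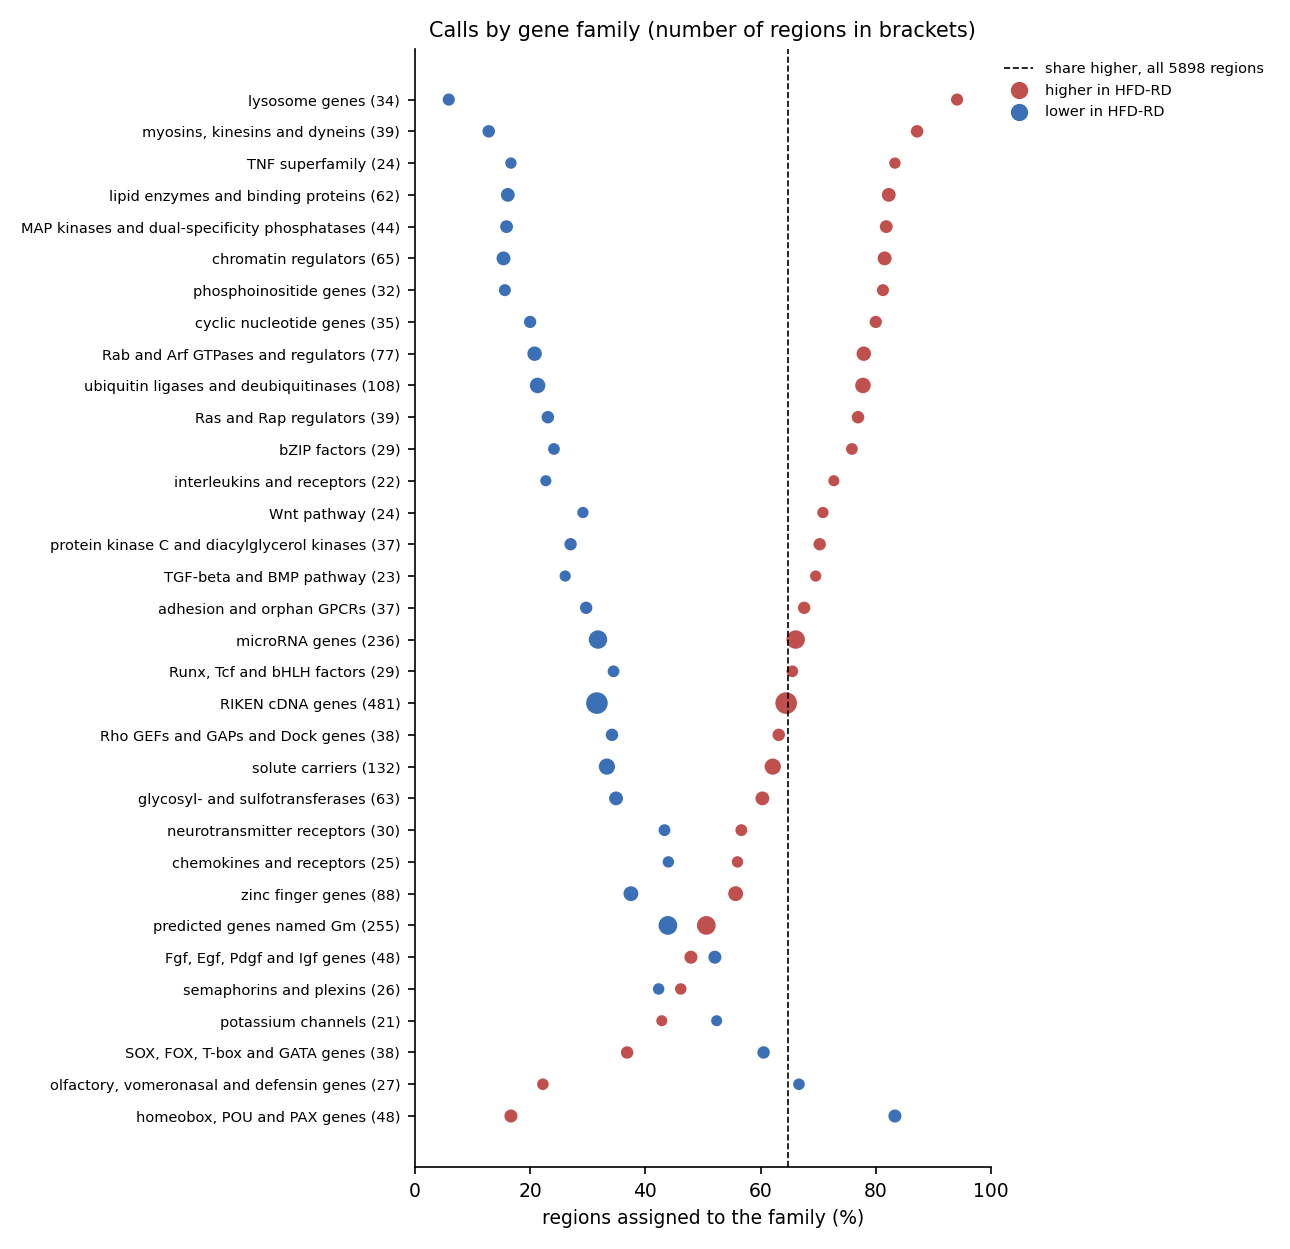
Share of regions (x axis, percent) that were higher (red) or lower (blue) in HFD-RD for each gene family with at least 20 regions (y axis, number of regions in brackets); point size grows with that number and the dashed line is the 64.8% of all regions that rose. Lysosome genes lie at 94.1% higher and homeobox, POU and PAX genes at 83.3% lower.

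By chromosome, rises made up 61.5% to 69.8% of regions on the autosomes other than chromosome 18, where 111 of 222 regions rose (50.0%) and 105 fell. Leaving out Celf4 moved this to 52.4%. On the X chromosome 58.4% of 89 regions rose. Of 9 regions on the Y chromosome none rose, 2 fell and 7 did not pass, and of 10 regions on unplaced or unlocalized contigs 4 fell and 6 did not pass. Regions over 3000 mean counts were another group that rarely passed, with 1 of 7 called. The most abundant, 35488 bases wide (chr9:3000575-3036062), held 9.95% to 15.0% of the reads of each library of the contrast and changed by -0.12 ± 0.26 (limma adjusted p = 0.66).

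Markers bear on the identity of the sorted nuclei only in part, because a region was deposited for differing, not for being open. Over all deposited regions 64.8% rose and 32.4% fell, and each marker list holds too few regions to be told apart from these shares. Of 11 macrophage markers, none was assigned a region and 2, Mrc1 and Itgam, held 6 in their gene bodies. The Itgam region rose by 1.12 ± 0.26 and the 5 Mrc1 regions fell, and the 6 together summed to 760.5 and 794 counts in HFD-RD and 1445 and 1545 in RD-RD. Of the other lists, markers of T cells, natural killer cells, mast cells, neutrophils and adipocytes held none in their gene bodies. A region assigned to the neutrophil marker Csf3r held 128 and 126 against 276.5 and 248 counts, and one assigned to the T-cell marker Cd4 held 496 and 527 against 232 and 265. B-cell markers held 5 regions at 3 of 5 genes, with 1 rise and 4 falls, and their summed counts were 450.5 and 512 in HFD-RD and 747 and 697 in RD-RD. Dendritic-cell markers held 3 regions at 3 of 5 genes, with 1 rise and 2 falls, and summed to 336 and 274 against 861 and 767.5. Xcr1 rose by 1.05 ± 0.24, while Siglech and Cd209a, with higher counts, fell by -1.70 ± 0.245 and -1.82 ± 0.19. Endothelial markers held 2 regions in the bodies of 2 of 4 genes, with 263 and 206 against 90.9 and 112, but the 6 regions assigned to 3 of these genes, with 3 rises and 3 falls, summed to 771.5 and 689 against 1074 and 1020. The fibroblast marker Pdgfrb held 1 region, with 69.3 and 52.8 against 31.1 and 13.0. Macrophage, B-cell and dendritic-cell sums were thus lower and the fibroblast sum higher in HFD-RD, while the endothelial sum was higher in gene bodies and lower over assigned regions. Their part in the changes at Cxcl13, Pou2af1, the Cd209 genes, Vegfa and Kdr was not tested.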

How the data were processed

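ATAC-seq libraries of adipose tissue macrophage nuclei were grouped by title and diet label (HFD-RD n = 2, RD-RD n = 2, HFD n = 3). Of the tools, the submitters' processing notes list MACS2 2.0.10, Picard, deepTools and DESeq2, with GRCm38 as build and no order; the aligner is not given in the sources used here. The deposited signal per region is a normalized count; within a tolerance of 1e-06 all values were whole multiples of 1 step per library, whose inverse was the size factor (HFD-RD 0.548 and 1.08, RD-RD 0.803 and 0.694). The authors' tables also deposited a log2 fold change, a score (their test statistic), p-values and adjusted p-values, for a single unnamed comparison in each table. Matched on the values, 2905 regions carried the fold change of this comparison in the authors' deposited tables, and its sign was that of limma in all 2905. Both rest on the same counts, and the match was made on the group means, so equal signs were nearly fixed in advance.

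Values were tested as log2(normalized count + 1) with limma 3.58.1 in R 4.3.3, 3 groups in 1 fit, contrast HFD-RD minus RD-RD, with Benjamini-Hochberg adjustment over 5898 regions at 0.05 (4 residual degrees of freedom, prior 7.2). A minimum mean of 10 removed 0 regions. Log2 changes understate changes of low regions. Depth in the regions ran from 889422 to 1479141 reads in the 4 libraries; the total depth of the libraries was not used here. On simulated data the fit was checked against known changes. Most simulated regions had no change and none had been selected, unlike the deposited set, where 97.2% passed. The check therefore does not cover data selected in this way. Classes, loci and families are counts of these calls with no test of their own. Gene identities and distances are the deposited annotation, and 3812 of 3815 gene identifiers matched RefSeq GRCm38.p6, which gave gene bodies and promoters. Coordinates count from 1 on GRCm38.

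The contrast, families, markers and lists were chosen with earlier results of these data known. Named regions followed a rule. Its first parts were the 8 genes with the most regions and the 4 widest mixed loci. Next came the 6 largest rises and the 6 largest falls without overlap between the 2 groups. All these parts left out provisional names (Gm, Rik, Mir and the like). The rule then took the largest change per distance class and family, the 3 highest counts and the 4 closest opposite pairs. Other genes are examples chosen after their values were seen. Alternatives changed the pseudocount, minimum, scaling, prior, threshold, libraries and block. The replicate numbers do not pair libraries.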

Additional observations from a re-analysis of the deposited data

How the results depend on the processing

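No region called both in the main test and under an alternative changed direction. Counts of 3822 rises and 1909 falls moved to 3822 and 1909 with a pseudocount of 0.5, 3825 and 1909 with 5, 3647 and 1823 with a minimum mean of 50, 3665 and 1939 with equal totals, 3617 and 1946 with equal totals without the largest region, 3768 and 1894 with the 4 libraries only, 3836 and 1911 with an intensity trend, and 3161 and 1735 with a log2 change of at least 1. That size limit also left 16 rises at gene starts and 165 genes of 3 or more regions with only rises, fewer by its construction. Without each library in turn rises ran from 3534 to 3821 and falls from 1850 to 1906; a lone library left in a group was assumed to vary like the others. Equal totals moved the median log2 change of all regions by -0.19, and by -0.23 without the largest region.

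Setting the median deviation of each library to 0, added after the data were seen, moved that median by -0.80, since most deposited regions rose. It left 877 rises, namely 1 at gene starts, 174 under 10 kb, 429 at 10 to 50 kb, 152 at 50 to 100 kb and 121 beyond, and 11 genes with only rises, while falls numbered 2002. Leaving out regions over 3000 mean counts gave 3821 and 1909. Distance alone, without the deposited position, gave 284 falls under 1 kb in place of 283 at starts.

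Libraries with the same number did not deviate together (r = -0.0401 across regions). With 2 libraries per group the deviations mirror each other, so both numbers give this same value. The replicate block gave 3806 rises and 1901 falls. The planned count-model tests were not run, so calls rest on log values. With 2 libraries per group and a median of 71 to 127 reads per region, regions that did not pass had a median SE of 0.26 on the log2 scale.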
